A study of Mus musculus with 12 samples.

Results

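The Krüppel-like factors (KLFs) described here are 10 transcription factor genes, Klf2, Klf3, Klf4, Klf5, Klf6, Klf7, Klf9, Klf10, Klf13 and Klf15. They were taken by symbol from a table of read counts with 23955 gene symbols, and all 10 passed the filter on low counts, which left 12323 genes. The counts come from mesenchymal stem cells of mouse bone marrow, a stromal population with the capacity to form fat, bone and cartilage. The cells were a commercial stock of female C57BL/6 mice, used at passages 9 to 10. All cultures received a fat-inducing cocktail of 0.5 mM isobutylmethylxanthine, 1 uM dexamethasone (a glucocorticoid) and 5 ug/mL insulin, and were studied at day 14. The DMSO group received 0.1% of the solvent. The ROSI group received 500 nM rosiglitazone, an antidiabetic drug that activates PPARγ, the main receptor of fat-cell differentiation. The TBT group received 50 nM tributyltin, an organotin pollutant known to activate RXR, the dimer partner of PPARγ, and PPARγ itself. Each group has 4 libraries, and the doses of the 2 ligands differ. No group was left without the cocktail, so a response to the cocktail itself cannot be read from these libraries.

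KLFs share a carboxy-terminal array of zinc fingers that binds GC-rich and CACCC-containing DNA, while their amino-terminal parts recruit different coactivators or corepressors. In fat-cell formation some members act in favour of it, among them Klf4 upstream of C/EBPβ and Klf5, Klf9 and Klf15 upstream of PPARγ. Klf2, Klf3 and Klf7 have been described as brakes on the process, and Klf6 as a repressor of the preadipocyte gene Dlk1.

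RefSeq promoters (build GRCm38.p6, the 250 bases before the start of the gene) were found for 8 of the 10 members; Klf5 and Klf10 had no entry. Because KLF proteins bind such letters, 2 motifs are marked in capitals, on either strand: the CACCC box (CACCC or GGGTG) and the GC box (GGGCGG or CCGCCC). The 4 shown belong to members whose counts turn up below as a decrease (Klf2), an increase with rosiglitazone (Klf4), an increase with tributyltin (Klf9) and a separation of groups without a call (Klf15). Klf2 lies at chr8:72318812-72319061 on the plus strand, Klf4 at chr4:55532476-55532725 on the minus strand, Klf9 at chr19:23140976-23141225 on the plus strand and Klf15 at chr6:90462326-90462575 on the plus strand.

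Klf2: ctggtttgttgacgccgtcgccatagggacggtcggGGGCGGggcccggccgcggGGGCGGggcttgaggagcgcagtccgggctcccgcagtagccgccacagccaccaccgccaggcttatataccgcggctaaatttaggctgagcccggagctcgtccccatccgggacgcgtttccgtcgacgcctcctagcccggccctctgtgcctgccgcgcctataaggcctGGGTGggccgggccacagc

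Klf4: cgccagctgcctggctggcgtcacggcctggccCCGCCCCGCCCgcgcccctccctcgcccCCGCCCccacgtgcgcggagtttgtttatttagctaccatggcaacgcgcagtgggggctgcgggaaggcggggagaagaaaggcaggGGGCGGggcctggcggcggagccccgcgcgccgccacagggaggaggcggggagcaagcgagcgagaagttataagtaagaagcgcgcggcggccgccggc

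Klf9: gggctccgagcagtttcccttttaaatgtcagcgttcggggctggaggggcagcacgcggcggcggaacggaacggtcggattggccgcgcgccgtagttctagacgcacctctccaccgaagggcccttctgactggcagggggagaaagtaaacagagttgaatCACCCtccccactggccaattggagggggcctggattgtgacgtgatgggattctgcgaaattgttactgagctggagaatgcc

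Klf15: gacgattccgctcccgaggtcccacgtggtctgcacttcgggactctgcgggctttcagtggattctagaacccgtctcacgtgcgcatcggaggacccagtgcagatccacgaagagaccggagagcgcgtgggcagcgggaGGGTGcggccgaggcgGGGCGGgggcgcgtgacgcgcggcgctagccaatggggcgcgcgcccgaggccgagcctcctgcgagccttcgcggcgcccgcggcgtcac

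A CACCC box was present in 6 of the 8 promoters and a GC box in 7. Over all 32841 RefSeq promoters of the same length the shares were 52.0% and 32.7%. The Klf4 window held 4 GC boxes, the first pair overlapping, and no CACCC box, whereas the Klf9 window held 1 CACCC box, 84 bases before the start, and no GC box. The Klf2 window held 2 GC boxes and 1 CACCC box, and the Klf15 window 1 of each. Neither the glucocorticoid receptor palindrome (GAACA, 3 bases of any kind, TGTTC), the direct repeat bound by PPARγ with RXR (AGGTCA, 1 base of any kind, AGGTCA), nor the letters TATAAA occurred in any of the 8 windows on either strand. Those 3 motifs were in 0.0396%, 0.0335% and 12.4% of all promoters. A match is a description of the letters only. The 4 printed windows held 71.2%, 74.0%, 59.6% and 72.0% GC in the order shown, against a median of 52.4% over all promoters.

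The library totals ran from 4027152 to 7474654 counts, of which the 10 members took 2454 to 4952. Levels are given as CPM, the count of a gene scaled to the size of its library. Adipocyte markers were present and differed between groups: the summed level of 10 genes was 1155 to 2539 CPM in DMSO, 5975 to 7403 in ROSI and 2978 to 3977 in TBT. The sum of 10 stromal markers was 3262 to 4131, 1289 to 1658 and 2264 to 2656 CPM, so stromal transcripts remained in every library. Single adipocyte markers did not all follow their sum. At an adjusted p under 0.05 in edgeR, 8 of 10 were higher and 1 lower in ROSI than in DMSO. In TBT against DMSO 4 were higher and 2 lower, and in TBT against ROSI 0 were higher and 8 lower. Of all tested genes, 22.6%, 15.2% and 23.9% were called in these comparisons. In bulk RNA, fewer cells of a type and less RNA per cell cannot be told apart, and the part of this mixture in the values below was not tested. TBT replicate 4 stood apart from its group: the ribosomal precursor Rn45s took 6.85% of its counts against 0.399% to 0.670% in TBT replicates 1 to 3, and its mean correlation across genes was 0.953 with its own group and 0.961 with the DMSO libraries. Each gene was also set against its own mean log2 level over the 12 libraries. Medians of GC-rich genes then lay below those of GC-poor ones by 0.55, 0.44 and 0.26 in TBT replicates 1 to 3. In TBT replicate 4 they lay 0.11 above. In the DMSO and ROSI libraries Rn45s took 1.36% to 9.27% of counts, and the same difference between GC-rich and GC-poor genes was -0.026 to 0.42. On both measures TBT replicates 1 to 3 thus lay outside the range of all DMSO and ROSI libraries, and TBT replicate 4 within it. The results that rest on this library are given with and without it.

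The members covered a wide range of levels. Per kilobase of the longest annotated transcript, Klf9 stood highest with a mean of 58.1 CPM per kb over the 12 libraries (44.1 to 90.8). Klf13 followed at 26.6 (19.3 to 43.1) and Klf3 at 22.1 (16.4 to 31.1), and the ranges of Klf13 and Klf3 overlapped. The other 7 lay between 4.07 (Klf6) and 7.17 (Klf10) CPM per kb with overlapping ranges, so no order among them can be given beyond their spread. Klf2 had the fewest reads, 14 to 96 per library, and Klf9 the most, 808 to 2273. The summed level of the 10 members was 653 ± 51.9 CPM with DMSO, 628 ± 23.9 with ROSI and 749 ± 161 with TBT (SD, n = 4), and TBT replicate 4, at 536 CPM, lay below every other library.

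**Figure D1:**
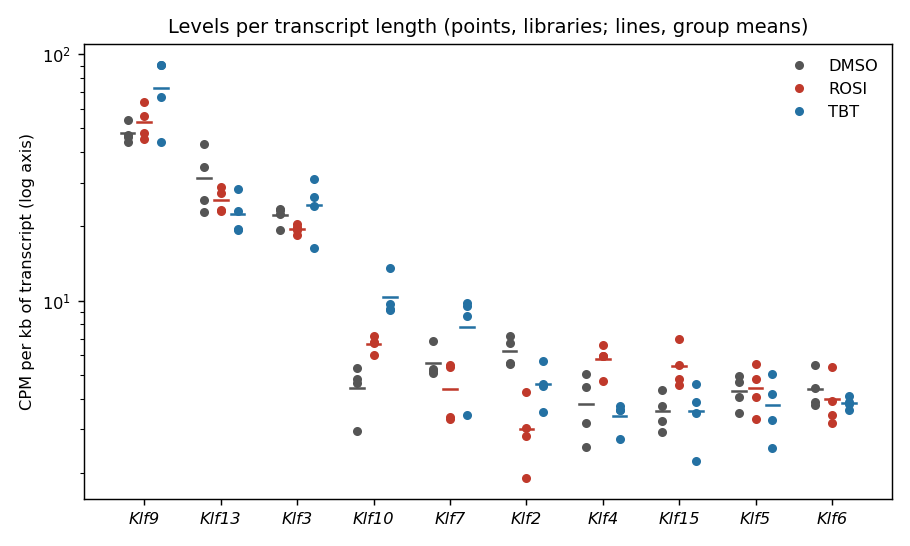
CPM per kb of transcript for each member (log axis), with 1 point per library and a line at each group mean, ordered by the mean over 12 libraries. Klf9, Klf13 and Klf3 stand above the other 7 members, whose points overlap.

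With rosiglitazone against DMSO, Klf2 fell and Klf4 and Klf10 rose, while 7 members did not pass the test. These 3 of 10 stand beside 22.6% of all tested genes called in the same comparison (1237 higher, 1550 lower), so the share of members called was near the background. With tributyltin against DMSO, Klf9 and Klf10 rose and 0 members fell, 2 of 10 beside 15.2% of all genes (1013 higher, 866 lower). Upper-quartile scaling, in place of TMM, gave 748 higher and 1143 lower genes there (15.3%), with Klf10 and Klf13 as the called members. Between tributyltin and rosiglitazone, Klf7 and Klf10 were higher and Klf4 lower with tributyltin, 3 of 10 beside 23.9% of all genes. Called means an adjusted p under 0.05 in the quasi-likelihood test of edgeR. Both ligands are compared with the same DMSO libraries, so those results are not independent of each other.

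**Figure D2:**
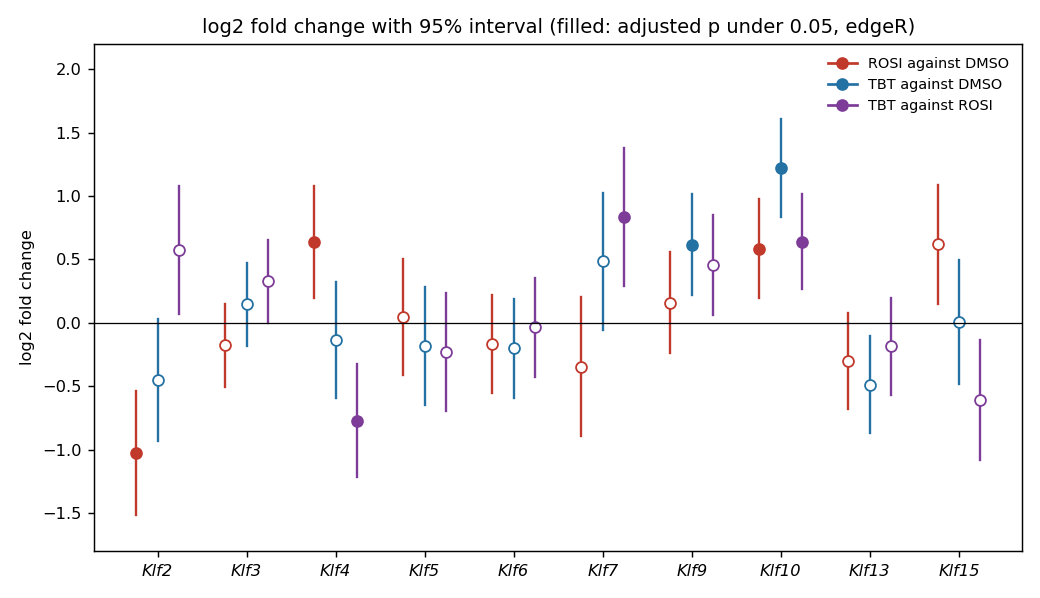
log2 fold change of each member in the 3 comparisons, with 95% intervals as bars and filled points for an adjusted p under 0.05 in edgeR. Klf10 is the one member with filled points in all 3 comparisons, and Klf5 and Klf6 lie near 0 in each.

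Klf10, first known as a gene that TGF-β induces early, encodes a repressor that is also tied to circadian and nutrient signals. Its level was 9.03, 16.1, 14.6 and 14.1 CPM in the DMSO libraries, 21.8, 20.7, 20.6 and 18.3 CPM in ROSI and 28.1, 41.1, 29.5 and 27.8 CPM in TBT. The 3 groups did not overlap: each ROSI library lay above all DMSO libraries and each TBT library above all ROSI libraries, TBT replicate 4 included. Groups that do not overlap were found for 28.3% of tested genes in ROSI against DMSO, 15.7% in TBT against DMSO and 20.7% in TBT against ROSI. Klf10 was 2.34-fold higher in TBT than in DMSO (95% interval 1.79 to 3.05), a log2 change of 1.22 ± 0.18 (SE) with an adjusted p of 5.2e-04 in edgeR. It passed in all 12 fits that left out 1 library, at adjusted p from 8.1e-05 to 0.0022. In ROSI it was 1.5-fold higher than in DMSO (1.14 to 1.97, adjusted p = 0.030 in edgeR), and in TBT 1.56-fold higher than in ROSI (1.20 to 2.02, adjusted p = 0.016). The Klf10 call in ROSI was lost when DMSO replicate 1 or 4 or ROSI replicate 1, 2 or 3 was left out, with adjusted p up to 0.095. The call between the ligands was lost without TBT replicate 2, the highest library, at an adjusted p of 0.064.

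**Figure D3:**
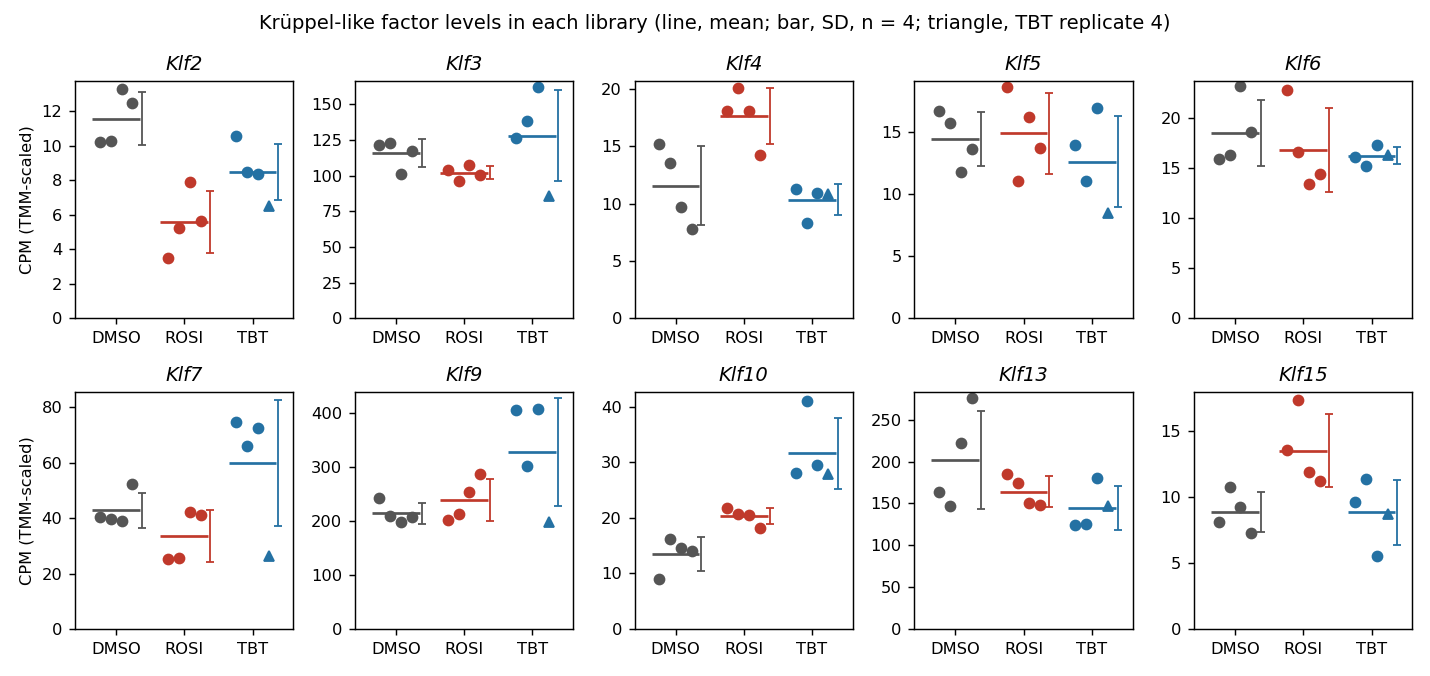
Level of each member in CPM, with a point per library, a line at the mean and a bar for the SD of 4 libraries; the triangle is TBT replicate 4. Klf10 separates the 3 groups, Klf2 is lowest in ROSI, and in Klf7 and Klf9 the triangle lies apart from the other TBT libraries.

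Among the members described as brakes on fat-cell formation, Klf2, which represses the Pparg promoter in preadipocytes and is a flow-responsive factor of endothelium, was lower with rosiglitazone. It stood at 10.2, 10.3, 13.3 and 12.5 CPM in DMSO, 3.51, 5.21, 7.89 and 5.62 CPM in ROSI and 10.5, 8.49, 8.34 and 6.52 CPM in TBT. All ROSI libraries lay below all DMSO libraries, while TBT overlapped both groups. Klf2 was 2.04-fold lower in ROSI than in DMSO (log2 change -1.03 ± 0.23, adjusted p = 0.0037 in edgeR), and the call held in all 12 fits without 1 library, at adjusted p up to 0.015. In TBT against DMSO the log2 change was -0.45 ± 0.23 (adjusted p = 0.18), and in TBT against ROSI 0.58 ± 0.24 (adjusted p = 0.089), neither of which passed in edgeR. The Klf2 transcript has the highest GC content of the members, 61.6% against a median of 49.2% over tested genes. With GC-corrected offsets the Klf2 change was -0.12 in TBT against DMSO and 0.91 in TBT against ROSI, the latter passing at an adjusted p of 0.030 in edgeR. It also passed against ROSI without ROSI replicate 3, and when TBT replicate 4 was left out (0.68, adjusted p = 0.033).

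The summed level of endothelial markers was also lower in ROSI. The sum of 8 of them was 8.32 to 10.3 CPM in DMSO, 2.76 to 5.21 in ROSI and 5.98 to 8.77 in TBT, with Tie1 at 0 in every library. In each group 5 or 6 of the 8 were under 1 CPM, and 1 of the 2 that could be tested fell in ROSI against DMSO, 0 in TBT against DMSO, and 1 was higher in TBT than in ROSI. The part of such cells in the Klf2 values was not tested.

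Klf7, a factor that slows fat-cell differentiation when overexpressed, stood at 40.4, 39.5, 39.0 and 52.3 CPM in DMSO and at 25.3, 25.8, 42.0 and 41.1 CPM in ROSI. In TBT it was 74.7, 66.2 and 72.7 CPM in replicates 1 to 3 and 26.3 CPM in replicate 4. TBT replicates 1 to 3 thus lay above every other library, and replicate 4 lay beside the lower ROSI libraries. Klf7 was 1.78-fold higher in TBT than in ROSI (1.22 to 2.6, adjusted p = 0.028 in edgeR), and its change against DMSO, 0.49 ± 0.26, did not pass (adjusted p = 0.20). Leaving out TBT replicate 4 made these 1.08 ± 0.18 (adjusted p = 9.7e-05) and 0.74 ± 0.17 (adjusted p = 0.0033). The Klf7 call between the ligands was lost without ROSI replicate 1 or 2 or TBT replicate 1, 2 or 3, with adjusted p up to 0.10. It was also lost in a fit of only the TBT and ROSI libraries. The libraries that were high in Klf7, and in Klf3 and Klf9 below, are the same TBT replicates 1 to 3 that stood apart in Rn45s and GC. With GC-corrected offsets Klf7 stayed called in TBT against ROSI and Klf9 in TBT against DMSO. Both calls were lost when a replicate block was added. GC correction without TBT replicate 4 called Klf3, Klf7 and Klf9 in TBT against ROSI. None of these fits held a term for Rn45s. The transcripts of Klf7, Klf3 and Klf9 hold 45.3%, 45.7% and 47.5% GC, against a median of 49.2% over tested genes. The part of Rn45s and GC in the 3 genes was not tested.

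Klf3, which recruits the corepressor CtBP and represses Cebpa, stood at 101 to 123 CPM in DMSO and 96.4 to 107 CPM in ROSI. In TBT it was 126, 138 and 163 CPM in replicates 1 to 3 and 85.5 CPM in replicate 4. As with Klf7, replicates 1 to 3 lay above every other library and replicate 4 below them. With all libraries Klf3 did not pass in any comparison, the nearest being TBT against ROSI at 0.33 ± 0.16 (adjusted p = 0.13 in edgeR). That change was 0.49 ± 0.12 without TBT replicate 4 and passed (adjusted p = 0.0037). Genes annotated on the opposite strand overlap Klf3 (Gm20033) and Klf7 (Gm13748 and Gm26649). The libraries carry no strand information, so reads of these genes cannot be told apart.

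Among the members that favour fat-cell formation, Klf9, induced by glucocorticoids and thyroid hormone, stood at 243, 210, 198 and 207 CPM in DMSO and 203, 214, 253 and 287 CPM in ROSI. In TBT it was 406, 302 and 407 CPM in replicates 1 to 3 and 198 CPM in replicate 4. Replicates 1 to 3 were above all 8 libraries of the other groups, and replicate 4 was level with the lowest DMSO library. Klf9 was 1.53-fold higher in TBT than in DMSO (1.16 to 2.02, log2 change 0.62 ± 0.19, adjusted p = 0.036 in edgeR). The call was lost when any 1 DMSO library or TBT replicate 1, 2 or 3 was left out, with adjusted p up to 0.13. It was also lost with upper-quartile scaling (adjusted p = 0.057) and in a fit of only the TBT and DMSO libraries. The change was 0.81 ± 0.14 without TBT replicate 4, with an adjusted p of 3.8e-04. In that fit Klf9 was also higher in TBT than in ROSI (0.64, adjusted p = 0.0015), which with all libraries did not pass (0.46, adjusted p = 0.084).

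Klf4, a pluripotency factor that acts with Egr2 on Cebpb at the start of fat-cell differentiation, stood at 15.2, 13.6, 9.67 and 7.74 CPM in DMSO. It was 18.1, 20.1, 18.1 and 14.2 CPM in ROSI and 11.3, 8.30, 10.9 and 10.9 CPM in TBT. ROSI lay wholly above TBT, while its lowest library was below the highest DMSO library. Klf4 was 1.71-fold lower in TBT than in ROSI (log2 change -0.77 ± 0.21, adjusted p = 0.015 in edgeR), and this was lost only without ROSI replicate 2 among the 12 fits that left out 1 library (adjusted p = 0.051). GC correction together with leaving out TBT replicate 4 also ended it (-0.57, adjusted p = 0.0502). Against DMSO it was 1.55-fold higher in ROSI (1.15 to 2.11, adjusted p = 0.036). That call was lost without DMSO replicate 3 or 4 or ROSI replicate 1, 2 or 3, with adjusted p up to 0.12, and with upper-quartile scaling at 0.0501. TBT and DMSO differed by -0.14 ± 0.22 (95% interval -0.59 to 0.32), which did not pass.

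Klf15, which rises late in fat-cell differentiation and drives the glucose transporter gene Slc2a4 and amino acid breakdown, stood at 8.08, 10.8, 9.26 and 7.27 CPM in DMSO. It was 13.5, 17.4, 11.9 and 11.2 CPM in ROSI and 9.65, 11.4, 5.56 and 8.70 CPM in TBT. Every ROSI library lay above every DMSO library, though the closest pair differed little, and TBT overlapped both groups. The change in ROSI, 0.62 ± 0.22, missed the threshold (adjusted p = 0.057 in edgeR). It passed in 4 of the 12 fits without 1 library, TBT replicate 4 among them (adjusted p = 0.040). It also passed in 4 of 11 other fits, among them those without the filter, of only the ROSI and DMSO libraries, and with limma. Between the ligands the change was -0.61 ± 0.23 (adjusted p = 0.058), and between TBT and DMSO 0.01 ± 0.23 (95% interval -0.48 to 0.50). The change between the ligands passed with upper-quartile scaling, with limma, and without ROSI replicate 4 or TBT replicate 2.

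Klf13, a relative of Klf9 in its DNA-binding part, ranged more widely within DMSO, at 163, 147, 222 and 276 CPM. It was 148 to 185 CPM in ROSI and 124 to 181 CPM in TBT, so all groups overlapped. Its change in TBT against DMSO was -0.49 ± 0.18 (adjusted p = 0.075 in edgeR). That change passed with upper-quartile scaling (-0.56, adjusted p = 0.045), without the filter and without DMSO replicate 2. Klf5, an early activator of the Pparg promoter together with C/EBPs, stood at 11.7 to 16.6 CPM in DMSO, 11.1 to 18.6 CPM in ROSI and 8.48 to 16.9 CPM in TBT. Klf6 stood at 15.9 to 23.2, 13.5 to 22.8 and 15.2 to 17.3 CPM. For Klf5 and Klf6 the log2 changes ran from -0.23 to 0.05 over the 3 comparisons, and the widest 95% intervals reached -0.69 and 0.51.

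**Figure D4:**
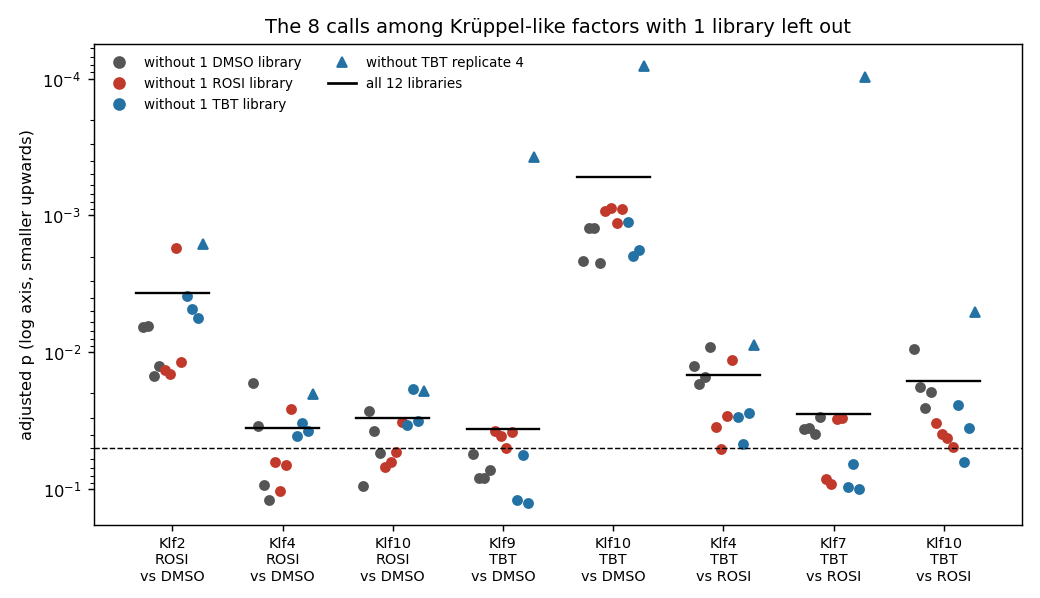
Adjusted p (edgeR, log axis with small values at the top) of the 8 member calls, with a bar for all 12 libraries and a point for each fit without 1 library. Klf2 in ROSI and Klf10 in TBT against DMSO stay past the dashed line at 0.05 in all 12 fits, and the other 6 calls do not.

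Of the 8 calls among 30 member comparisons, 2 held in all 12 fits without 1 library. Leaving out TBT replicate 4 gave 3 called members in TBT against DMSO (Klf7, Klf9 and Klf10), beside 32.6% of all genes. In TBT against ROSI it gave 6 (Klf2, Klf3, Klf4, Klf7, Klf9 and Klf10), beside 38.2%. In ROSI against DMSO, Klf15 joined Klf2, Klf4 and Klf10, beside 28.0% of all genes.

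The other KLF genes gave few reads. Klf11, a TGF-β-inducible relative of Klf10, stood at 4.74 to 6.79 CPM in DMSO, 7.27 to 13.6 in ROSI and 4.92 to 9.26 in TBT. Its ROSI libraries lay above all DMSO libraries, but the change of 0.71 ± 0.26 did not pass (adjusted p = 0.062 in edgeR). Klf11 passed there without TBT replicate 4 (0.72 ± 0.25, adjusted p = 0.039). Klf12 stood at means of 4.73, 3.41 and 4.38 CPM and did not pass in any comparison. Klf1, Klf8, Klf14, Klf16 and Klf17 were under the filter. The related Sp factors bind the same GC boxes, and of 4 tested members 0 passed in either ligand against DMSO with all libraries in edgeR, with 0 and 2 at an unadjusted p under 0.05. Without TBT replicate 4, Sp3 was higher in TBT than in DMSO (0.31 ± 0.11, adjusted p = 0.042). Sp4 was higher in TBT than in ROSI (0.49 ± 0.14, adjusted p = 0.021 in edgeR), in 8 of 12 fits without 1 library. With GC-corrected offsets that call was lost (0.27, adjusted p = 0.19).

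Genes of proteins that KLFs recruit or that modify them were counted next. Of 14 tested corepressors, coactivators and regulators, 2 fell in ROSI, 1 rose in TBT against DMSO and 3 were higher in TBT than in ROSI (medians over the list -0.20, 0.02 and 0.23 against 0.01, -0.01 and 0.02 over all genes). The called shares of 14.3%, 7.14% and 21.4% were below those of all genes (22.6%, 15.2% and 23.9%). With TBT replicate 4 left out, the counts were 3 lower in ROSI, 4 higher and 1 lower in TBT against DMSO, and 7 higher and 1 lower in TBT against ROSI. That setting also raised the shares of all genes called, to 28.0%, 32.6% and 38.2%. Wwp1, a ubiquitin ligase that targets KLF proteins for degradation, fell from 522 ± 52.2 CPM in DMSO to 290 ± 38.5 in ROSI (log2 change -0.85 ± 0.15, adjusted p = 3.8e-04 in edgeR) and was higher in TBT than in ROSI (0.67, adjusted p = 0.0033). Hdac2, a histone deacetylase, rose from 113 ± 12.0 CPM in DMSO to 173 ± 32.2 in TBT (0.61 ± 0.15, adjusted p = 0.012). Hdac2 was called higher in TBT than in ROSI too, and in 8 of 12 fits without 1 library. GC-corrected offsets ended that call (adjusted p = 0.097 in edgeR), as did the replicate block and a fit of only the TBT and ROSI libraries. Ctbp1 and Ctbp2, the corepressors that Klf3 binds, did not pass in any comparison with all libraries and the filter used here, with means of 17.3 to 29.5 CPM. Without the filter, or without ROSI replicate 4, Ctbp1 passed in TBT against ROSI. Without TBT replicate 4, Ctbp1 was lower in TBT than in DMSO (-0.66 ± 0.21, adjusted p = 0.024) and than in ROSI (-0.75 ± 0.21, adjusted p = 0.0089). Kat2b, a histone acetyltransferase gene, was called in TBT against ROSI, and in 11 of 12 fits without 1 library.

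Genes that lie upstream or downstream of KLFs in fat-cell differentiation were counted in the same way. Of 16 tested, 7 rose and 1 fell in ROSI against DMSO, with a median change of 0.50. In TBT against DMSO 3 rose and 1 fell (median 0.16), and in TBT against ROSI 2 were higher and 6 lower (median -0.10). The called shares were 50%, 25% and 50%, beside 22.6%, 15.2% and 23.9% of all genes. The numbers without TBT replicate 4 were 8 and 1, 4 and 1, and 2 and 7, beside 28.0%, 32.6% and 38.2% of all genes. Cebpa, the C/EBP of mature fat cells and a target that Klf3 represses, rose from 22.1 ± 5.81 CPM in DMSO to 55.7 ± 13.9 in ROSI (1.32 ± 0.19, adjusted p = 8.9e-05 in edgeR) and stood at 21.7 ± 1.20 in TBT. Slc2a4, a Klf15 target, rose from 2.05 ± 1.00 to 10.5 ± 2.55 CPM in ROSI (adjusted p = 6.6e-04) and was 3.26 ± 2.57 CPM in TBT. Pparg stood at 62.6 ± 10.3, 82.9 ± 12.0 and 79.9 ± 12.5 CPM and did not pass against DMSO (adjusted p = 0.066 and 0.12). The Pparg change in ROSI passed in some other fits, among them those without ROSI replicate 2, TBT replicate 3 or TBT replicate 4 (adjusted p = 0.047, 0.042 and 0.042) and DESeq2 (0.042).

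The cell-cycle genes of that list moved in opposite directions in ROSI. Ccnd1, the gene of cyclin D1, fell from 78.3 ± 14.9 CPM in DMSO to 24.1 ± 2.47 in ROSI (adjusted p = 1.7e-06 in edgeR) and to 44.9 ± 7.70 in TBT (adjusted p = 0.0038). Cdkn1a, the gene of the inhibitor p21, was 73.3 ± 17.9 CPM in DMSO and rose to 181 ± 31.4 in ROSI (adjusted p = 1.6e-04). In TBT it stood at 61.7 ± 18.4. Egr2, the partner of Klf4, rose in TBT against DMSO from 19.7 ± 5.39 to 31.4 ± 4.57 CPM (adjusted p = 0.030), a call that held in 8 of 12 fits without 1 library, and Srebf1 rose there in 7 of 12. Ddit3, which encodes a C/EBP inhibitor, was 2.78-fold lower in TBT than in ROSI (adjusted p = 7.1e-04). Cebpb, Cebpd and Dlk1, the gene that Klf6 represses, did not pass in any comparison with all libraries. Without TBT replicate 4, Cebpb was higher in TBT than in DMSO (0.49 ± 0.18, adjusted p = 0.041) and Cebpd higher in TBT than in ROSI (0.45 ± 0.14, adjusted p = 0.017).

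Klf15 is linked to genes of amino acid and acetate metabolism, and the list used here also holds the acyl-CoA synthetase gene Acsl1. Of 10 tested, 8 rose and 0 fell in ROSI against DMSO (median change 1.03), 4 rose and 1 fell in TBT against DMSO (median -0.12), and 0 were higher and 7 lower in TBT than in ROSI (median -0.81). The called shares of 80%, 50% and 70% stood above the 22.6%, 15.2% and 23.9% of all genes. Counts of higher and lower genes were 9 and 0, 4 and 2, and 0 and 7 without TBT replicate 4. All genes were called there at shares of 28.0%, 32.6% and 38.2%. Gpt2, an alanine aminotransferase, had a level of 43.6 ± 9.10 CPM with DMSO, 110 ± 3.33 with ROSI and 66.9 ± 13.2 with TBT, and passed in all 3 comparisons (adjusted p = 1.2e-05, 0.018 and 0.0036 in edgeR). Aldh6a1, of valine breakdown, rose in both ligands, from 123 ± 27.9 to 293 ± 16.6 and 212 ± 30.9 CPM. Acsl1, an acyl-CoA synthetase, went opposite ways, from 202 ± 93.6 CPM in DMSO to 860 ± 83.9 in ROSI (adjusted p = 4.3e-06) and 117 ± 3.99 in TBT (adjusted p = 0.023). Bcat2, the mitochondrial branched-chain aminotransferase, was 4.49-fold lower in TBT than in ROSI (adjusted p = 5.4e-05). Acss2 and Hibadh rose in TBT as well (0.63 and 0.49 on the log2 scale), and the Hibadh call was lost with GC-corrected offsets (0.31, adjusted p = 0.089). The adipocyte marker sums given above were likewise higher in ROSI than in DMSO and lower in TBT than in ROSI. In TBT against DMSO the sums were higher too. Of the 10 single adipocyte markers 4 were called higher and 2 lower there, beside 4 and 1 of 10 in this list. The part of the adipocyte markers in this list was not tested.

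**Figure D5:**
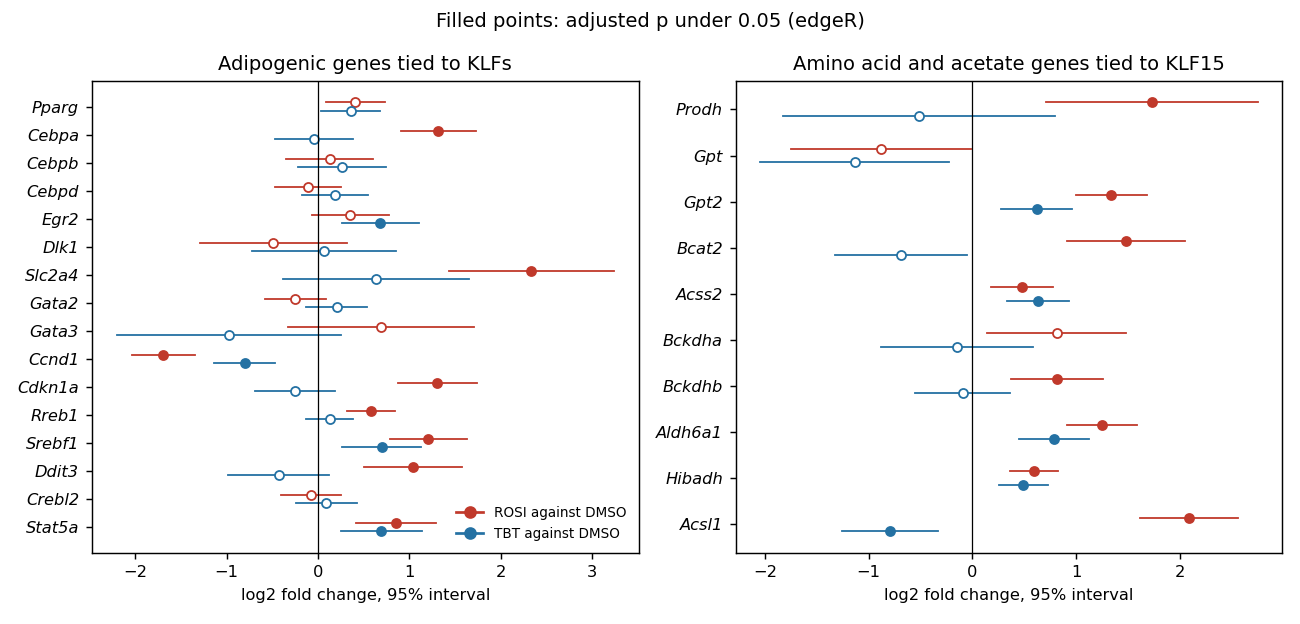
log2 fold change against DMSO with 95% intervals for the 16 adipogenic genes (left) and the 10 Klf15-linked metabolic genes (right); filled points have an adjusted p under 0.05 in edgeR. In ROSI 8 genes of each panel are filled, in TBT 4 and 5.

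Klf9 is a glucocorticoid-induced gene and all cultures held dexamethasone, so other genes of that kind were counted. Of 16 tested, 2 rose and 2 fell in ROSI, 1 rose and 2 fell in TBT against DMSO, and 2 were higher and 3 lower in TBT than in ROSI. These shares, 25%, 18.8% and 31.2%, were near the 22.6%, 15.2% and 23.9% of all genes. Fkbp5, a classical target, stood at 830 ± 95.8, 963 ± 76.4 and 995 ± 91.9 CPM in DMSO, ROSI and TBT, and the receptor gene Nr3c1 at 103 ± 16.1, 95.4 ± 14.1 and 122 ± 8.59 CPM. Neither passed in any comparison in edgeR. Per1, a clock gene, fell in TBT from 73.3 ± 3.83 to 41.6 ± 15.2 CPM (adjusted p = 0.012), and Mt2, a metallothionein, from 353 ± 69.3 to 187 ± 35.4 CPM (adjusted p = 0.0053). Tsc22d3 was higher in TBT than in ROSI (510 ± 104 against 320 ± 25.7 CPM, adjusted p = 0.0091). Hsd11b1, the enzyme that regenerates active glucocorticoid, rose in ROSI from 11.2 ± 2.87 to 30.0 ± 2.72 CPM (adjusted p = 9.3e-05). Errfi1 fell in ROSI (-0.53, adjusted p = 0.0034) and was 0.95 higher in TBT than in ROSI on the log2 scale (adjusted p = 3.6e-05). Without TBT replicate 4 the counts were 2 and 3, 2 and 2, and 4 and 4. The shares of all genes called there were 28.0%, 32.6% and 38.2%.

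Several KLF genes are induced within minutes by growth factors, as immediate early genes are. Of 20 of these, 1 rose and 2 fell in ROSI, 1 rose and 3 fell in TBT against DMSO, and 2 were higher and 4 lower in TBT than in ROSI. The called shares of 15%, 20% and 30% again lay near those of all genes. Atf3, a stress-induced factor, rose from 4.92 ± 1.36 CPM in DMSO to 17.5 ± 5.43 in ROSI (adjusted p = 6.2e-05 in edgeR) and was 2.70 ± 0.72 in TBT. Dusp1, a phosphatase gene, and Cyr61, a matrix protein gene, fell in ROSI (-0.80 and -0.91). Ier3 and Nr4a1 fell in TBT against DMSO, in 10 and 8 of 12 fits without 1 library, and with GC-corrected offsets neither passed (adjusted p = 0.067 and 0.091). Without TBT replicate 4 the counts were 2 and 3, 3 and 5, and 4 and 4. The shares of all genes called there were 28.0%, 32.6% and 38.2%. Dusp1 and Cebpd and Egr2 each stand in 2 of the lists, so the lists share members.

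Because Klf10 is induced by TGF-β, 14 genes that respond to this cytokine or carry its signal were set beside it. In ROSI 1 rose and 2 fell, in TBT against DMSO 4 rose and 1 fell, and in TBT against ROSI 6 were higher and 0 lower, with medians of 0.04, 0.11 and 0.29. The called shares were 21.4%, 35.7% and 42.9%, beside 22.6%, 15.2% and 23.9% of all genes. Markers of other cells moved too: of 4 tested smooth muscle markers 3 fell in ROSI, 1 rose in TBT against DMSO and 4 were higher in TBT than in ROSI (sums of 705 to 907 CPM with DMSO, 334 to 384 with ROSI and 619 to 1076 with TBT). The sum of 1076 CPM was that of TBT replicate 4, and TBT replicates 1 to 3 stood at 686, 619 and 716 CPM. Of 9 tested stromal markers, 5 fell in ROSI, 3 fell in TBT against DMSO and 5 were higher in TBT than in ROSI. Their part in this list was not tested. Postn, a matrix gene, had a level of 44.4 ± 9.53 CPM with DMSO, 42.5 ± 9.29 with ROSI and 103 ± 32.0 with TBT (adjusted p = 0.0015 against DMSO in edgeR). Id1 and Id3, inhibitors of helix-loop-helix factors, rose in TBT from 13.5 ± 5.97 to 27.4 ± 3.86 CPM and from 49.9 ± 17.3 to 93.4 ± 9.57 CPM (adjusted p = 0.0099 and 0.0088). Ctgf, a connective tissue growth factor gene, fell in ROSI from 48.4 ± 11.3 to 11.8 ± 1.65 CPM (adjusted p = 2.9e-06) and stood at 50.0 ± 13.4 in TBT. The receptor gene Tgfbr2 fell in both ligands (-0.47 and -0.41, adjusted p = 0.0074 and 0.027). Smad7, a target of the same pathway, did not pass in any comparison with all libraries, and without TBT replicate 4 it was lower in TBT than in DMSO (-0.68, adjusted p = 0.049) and than in ROSI (-1.10, adjusted p = 0.0020). Without TBT replicate 4 the numbers were 2 and 4, 4 and 3, and 6 and 3. The shares of all genes called there were 28.0%, 32.6% and 38.2%.

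Across the 12 libraries, the genes most like each member in log2 CPM were searched among 10232 with a mean of at least 5 CPM. The correlations describe libraries that share their group and depth. Klf10 was closest to Slc30a1, a zinc exporter gene (r = 0.969, at means of 19.5, 26.0 and 34.0 CPM in DMSO, ROSI and TBT), then to Zmym6 (0.961) and Smim19 (0.957). Klf2 was closest to the growth factor gene Fgf7 (0.954, with 314, 200.4 and 261 CPM), then to D830031N03Rik and the interleukin-1 receptor gene Il1r1. Klf4 was closest to Scpep1 (0.918), Mcur1 and Trabd.

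The genes closest to Klf3, Klf7 and Klf9 were, like these members, low in TBT replicate 4. That follows from the search, which ran over libraries that include it, and is no separate result. Klf7 was nearest to the chromatin remodelling gene Bptf (0.983), at 407 CPM in TBT and 195 CPM in replicate 4, then to Ccdc66 and the activin subunit gene Inhba. Klf9 was nearest to Pdcd5 (0.971), at 39.9 CPM in TBT and 19.4 in replicate 4, then to the corepressor gene Ncor1 and to Xpa. Klf3 was nearest to Vkorc1 (0.963), Klf13 to Pram1 (0.895), Klf15 to Ppapdc1b (0.907), Klf5 to Ralb (0.916) and Klf6, the least matched, to Zfp180 (0.754).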

How the data were processed

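RNA of 12 libraries, 4 in each of 3 groups, was read as single 50 nt reads without strand information on a SOLiD sequencer after removal of ribosomal RNA, per the labels' protocols. The authors deposited raw read counts per gene symbol and regularized-log values on a log2 scale. Genome build mm9, FastQC, SAMtools and DESeq2 are named in the submitters' processing notes without versions. Which aligner, counter and annotation were used is not given in the sources used here.

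Counts were tested in R 4.3.3 with edgeR 4.0.16: filterByExpr, TMM factors and 1 quasi-likelihood model over all 12 libraries without covariates, with Benjamini-Hochberg adjustment over all 12323 tested genes and a threshold of 0.05. Standard errors were derived from the F statistic. CPM are counts over TMM-scaled library sizes, given as mean ± SD over n = 4. Transcript lengths and GC content came from GENCODE, and promoters from RefSeq. Whether the 4 libraries of a treatment were separate cultures is not in the labels. The p-values rest on their spread alone, and that spread could be technical. No pair of libraries in a group was a copy, the lowest chi-square over its degrees of freedom being 4.66. The test was tried first on simulated counts with known changes.

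The members and gene lists were chosen with earlier results of these data known. Named are all members, the other KLF genes, a fixed set (Pparg, Cebpa, Cebpb, Cebpd, Dlk1, Slc2a4, Egr2, Ctbp1, Ctbp2, Nr3c1, Fkbp5, Tsc22d3, Per1), up to 3 called genes with the smallest p in each list and comparison, and the 3 genes most like each member; Smad7 was added after its values were seen. Some genes that this rule picks are not reported here, though the counts include them. Alternatives were other scaling factors, DESeq2 1.42.0, limma 3.58.1 on the deposited log2 values, other filters and thresholds, a replicate block, fits of 2 groups, GC-corrected offsets and leaving out each library. Those without TBT replicate 4 that count gene lists or add the GC correction were chosen after seeing the data.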

Additional observations from a re-analysis of the deposited data

Results flagged for a closer look

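In 30 groups of 4 libraries (10 members in 3 groups), 3 had 1 library far from the others, measured as its gap to the nearest library over the range of the group; chance gives about 1 in 20 groups. Klf4 in TBT replicate 2 was 8.30 CPM, below 10.9, 10.9 and 11.3 CPM in the rest. Klf7 in DMSO replicate 4 was 52.3 CPM, above 39.0 to 40.4 CPM. Klf10 in TBT replicate 2 was 41.1 CPM, above 27.8 to 29.5 CPM. TBT replicate 4 was low for Klf7, at 26.3 CPM, without passing this mark.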

How the results depend on the processing

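The same-numbered libraries showed little common deviation (12 correlations from -0.43 to 0.14, 2 of them above 0.1). In both other groups at once, 0 of 12 libraries correlated best with their own number. That joint rule is strict, so this count says little about pairing. The replicate block is given as an alternative only, here and for Klf7 and Klf9 above. It gave 1160 genes and 1 member in TBT against DMSO, without Klf9, and ended the Klf7 call in TBT against ROSI (adjusted p = 0.063). At an adjusted p under 0.01, 1713, 574 and 1355 genes were called in ROSI against DMSO, TBT against DMSO and TBT against ROSI, with 1, 1 and 0 members. In TBT against DMSO the fit of 2 groups gave 1199 genes and 1 member, and GC-corrected offsets with the replicate block 1118 and 1, with 1 member (Klf10) in TBT against ROSI, where Klf4 and Klf7 were lost (adjusted p = 0.054 and 0.081). GC correction without TBT replicate 4 gave 3501 genes in TBT against DMSO and 5 members in TBT against ROSI. Leaving out 1 library at a time gave 2219 to 3537, 1019 to 4124 and 1732 to 4826 genes and 1 to 4, 1 to 3 and 1 to 6 members. The other values that changed sign were log2 changes that did not pass as reported. In TBT against DMSO, Klf15 was -0.065 with upper-quartile factors, -0.017 at a mean of at least 5 CPM, -0.0245 with the replicate block and -0.0036 in the fit of 2 groups. Dlk1 was -0.0044 and Ctbp2 -0.035 with upper-quartile factors. Cebpa was 0.0060 with the replicate block, 0.0080 with limma, 0.28 with GC correction, 0.35 with the block added and 0.37 without TBT replicate 4. Klf4 was 0.037, 0.049 and 0.077 in those 3 GC settings, and Klf2 0.075 in the last. Klf13 in TBT against ROSI was 0.011 with GC correction and 0.061 without TBT replicate 4 as well. Leaving out 1 library moved Klf5 from -0.059 to 0.17, Dlk1 from -0.74 to 0.069, Ctbp1 from -0.093 to 0.22 and Per1 from -0.095 to 0.051 in ROSI against DMSO. The ranges in TBT against DMSO were -0.29 to 0.022 for Klf4, -0.13 to 0.16 for Klf15, -0.18 to 0.11 for Cebpa, -0.16 to 0.62 for Dlk1 and -0.062 to 0.14 for Ctbp2. In TBT against ROSI they were -0.16 to 0.13 for Klf6, -0.13 to 0.026 for Pparg, -0.049 to 0.35 for Cebpb and -0.0088 to 0.099 for Fkbp5. A stricter threshold lowers counts by construction. The cause of the other changes was not tested. Klf2 had the lowest count of the members in a single library, at 14 reads, and the limit set by depth was not compared between members.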
